A study of Arabidopsis thaliana with 9 samples.

Results

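8 Arabidopsis thaliana loci of the rapid stress response were examined in 9 RNA-seq libraries of whole seedlings. They encode the C2H2 zinc-finger factors ZAT6 (AT5G04340), ZAT10 (AT1G27730), ZAT11 (AT2G37430) and ZAT12 (AT5G59820), the CCCH zinc-finger proteins SZF1 (AT3G55980) and SZF2 (AT2G40140), and the deadenylases CAF1a (AT3G44260) and CAF1b (AT5G22250). These 8 of the 27655 loci in the deposited table were chosen by gene family after values of the same libraries had been seen, among them the low levels of ZAT10, CAF1a and SZF1 in one line, so their own differences between groups are a description, with no p-value, and the calls made for them in the fit over all genes are only counted beside the share of all genes called. The 3 groups of 3 libraries were wild type (Col) and a pair of mutant lines. The labels call one h3.3ko;HTR5 G34R and the other h3.3ko;HTR5 G34W, shortened here to G34R and G34W. Every group was sampled after 10 days at 22 °C under days of 16 h light followed by 8 h dark. By the usual notation the labels name an HTR5 histone H3.3 protein with glycine exchanged for arginine or for tryptophan, and both lines carry the h3.3ko background. The labels give neither the promoter of the HTR5 copy nor the number of independent lines, and a line of that background with unchanged HTR5 was not analysed here, so substitution and background cannot be told apart.

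Plants answer touch, wounding, salt, cold and reactive oxygen with a burst of new transcripts within minutes. ZAT proteins of this class are mostly repressors of transcription that belong to this burst. SZF1 and SZF2 are tandem CCCH zinc-finger proteins with an arginine-rich region, a class that can bind RNA, and both are induced by salt. CAF1 proteins are among the catalytic deadenylases of the CCR4-NOT complex, which shortens poly(A) tails and so starts the decay of messenger RNA. CAF1a and CAF1b are the stress-induced members of the family.

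The libraries held 12895444 to 14739554 recovered reads, and 3 reads in a gene of 1 kb came to 0.422 to 0.495 TPM. Of the H3.3 genes, HTR8 lay between 207 and 214 TPM in wild type and between 3.92 and 6.69 TPM in the lines. HTR4 lay between 408 and 438 TPM in wild type and between 132 and 165 TPM in the lines, so its transcripts were lower but still present. HTR5 lay between 331 and 335 TPM in wild type, 353 and 360 TPM in G34R and 368 and 390 TPM in G34W, without overlap. Replicates differed by more than counting noise, most of all G34R replicates 1 and 3, with a chi-square of 5.31 per degree of freedom against 1.77 to 2.79 in the other pairs within groups. Over the 9 libraries together both organs were represented, since all 10 root markers and all 6 shoot markers passed the filter. That filter is a mean over all libraries, and the root marker PRP1, at 0.767 TPM in wild type, passed only through the lines. The groups differed in these markers. The summed level of the 10 root markers was 49.6 to 54.9 TPM in wild type, with 139.9 to 164 TPM in G34R and 121 to 128 TPM in G34W, and that of the 6 shoot markers was 83842 to 85243, 74997 to 80371 and 76203 to 77669 TPM. The part of these differences in the results below was not tested, and in whole seedlings fewer cells of a type and less RNA per cell cannot be told apart.

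The 8 genes are compact. ZAT6, ZAT10, ZAT11, ZAT12, CAF1a and CAF1b have 1 exon in their annotated transcript, and SZF1 and SZF2 have transcripts of up to 2 exons. Thus 6 of 8 (75.0%) were without an intron, against 13.2% of the 18465 tested genes with annotated exons in RefSeq's TAIR10.1 annotation. None of the 8 overlaps another annotated gene on either strand. Their spans run from 940 bases for ZAT11 to 2738 bases for SZF2.

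4 upstream sequences are shown because they belong to 2 pairs of related genes, one in which both genes were lower in the lines and one in which they parted. Each is the 300 bases before the annotated start, from RefSeq's TAIR10.1 genome, read 5′ to 3′ in the direction of the gene. Capitals mark stretches of at least 10 bases that both genes of a pair share on the same strand, at distances from the start that differ by at most 50 bases.
SZF1 upstream, TAIR10.1 chr3:20775920-20776219, plus strand: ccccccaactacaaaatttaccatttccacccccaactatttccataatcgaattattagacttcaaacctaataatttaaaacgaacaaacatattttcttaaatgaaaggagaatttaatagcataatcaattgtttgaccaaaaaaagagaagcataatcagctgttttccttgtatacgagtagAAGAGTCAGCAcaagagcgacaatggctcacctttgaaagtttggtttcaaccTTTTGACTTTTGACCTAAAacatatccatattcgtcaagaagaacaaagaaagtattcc
SZF2 upstream, TAIR10.1 chr2:16771697-16771996, plus strand: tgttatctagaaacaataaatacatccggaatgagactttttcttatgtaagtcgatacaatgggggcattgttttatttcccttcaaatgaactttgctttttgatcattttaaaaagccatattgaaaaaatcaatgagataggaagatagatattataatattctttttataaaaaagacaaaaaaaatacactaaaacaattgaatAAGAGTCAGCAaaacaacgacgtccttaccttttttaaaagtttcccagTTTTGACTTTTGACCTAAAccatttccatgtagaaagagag
ZAT10 upstream, TAIR10.1 chr1:9649324-9649623, minus strand: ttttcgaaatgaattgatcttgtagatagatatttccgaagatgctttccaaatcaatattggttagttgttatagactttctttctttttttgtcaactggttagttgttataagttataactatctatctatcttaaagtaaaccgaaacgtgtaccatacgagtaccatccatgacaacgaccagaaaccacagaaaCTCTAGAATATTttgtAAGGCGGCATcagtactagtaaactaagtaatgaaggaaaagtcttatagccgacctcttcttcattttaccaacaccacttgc
ZAT6 upstream, TAIR10.1 chr5:1217363-1217662, minus strand: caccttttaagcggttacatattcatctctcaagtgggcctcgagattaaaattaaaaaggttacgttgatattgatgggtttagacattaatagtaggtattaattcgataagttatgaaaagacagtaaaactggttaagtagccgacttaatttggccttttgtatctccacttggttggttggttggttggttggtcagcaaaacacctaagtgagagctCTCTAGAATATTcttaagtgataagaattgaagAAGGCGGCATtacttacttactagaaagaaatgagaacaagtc

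SZF1 and SZF2 share the 19 bases TTTTGACTTTTGACCTAAA, which begin 59 bases before the start of SZF1 and 41 bases before that of SZF2. On either strand, this stretch was found in 2 of 27444 windows of the same length (0.00729%), those of SZF1 and SZF2, from which it was taken. It holds TTGACT. After that come the letters TTGACC, and both are forms of the W-box that WRKY factors bind. The second shared stretch, AAGAGTCAGCA, was found in 6 of the windows. ZAT10 and ZAT6 share CTCTAGAATATT, found in 7 of the windows, and AAGGCGGCAT, found in 2 of them. Each stretch was taken from the windows of its own pair, so none of these counts could be under 2. CAF1a and CAF1b share no such stretch, nor do ZAT11 and ZAT12.

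5 motifs of 6 bases were searched on both strands of the 8 windows. TTGACC stood in the windows of ZAT11, SZF1 and SZF2, 3 of 8, against 14.0% of all windows. TTGACT stood in the windows of the same genes, against 22.0% of all windows. The motif CGCGTG, which CAMTA factors can bind, stood 252 bases before the start of ZAT12 and in none of the other windows, against 2.93% of all. CGCGTT, the core of the rapid stress response element, stood in none of the 8, against 3.08% of all. The G-box, CACGTG, also stood in none, against 7.09% of all. The first 5 letters of the CAMTA-type and rapid-response motifs are the same, as are those of the W-box forms, and a match or its lack describes only these letters in these windows.

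ZAT10 and CAF1a had the lowest levels relative to wild type among the 8 genes in both lines, whereas ZAT6 and ZAT11 were not lower. Levels are TPM. For nearly all genes the length behind them is the gene span, introns included, so comparisons of level between genes depend partly on intron length. Differences are in log2(TPM + 1) with their SE, a scale that compresses the differences of weakly expressed genes. The median difference of all 18544 tested genes was 0.10 in G34R and 0.21 in G34W, and it was -0.01 and 0.01 after median-ratio scaling of the libraries.

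**Figure D1:**
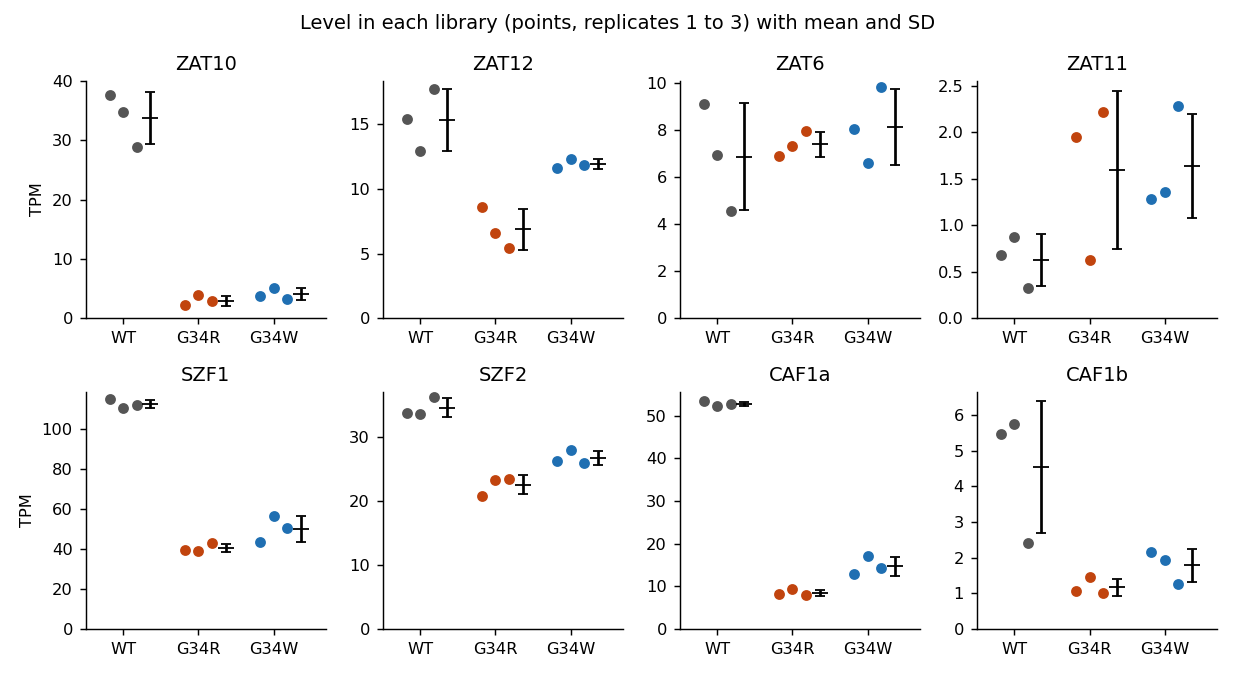
TPM of each of the 8 genes in the 9 libraries, with a vertical axis from 0 in each panel. Points are replicates 1 to 3 of wild type (WT), G34R and G34W, and the black bar gives the group mean and SD. ZAT10 lies between 28.9 and 37.6 TPM in wild type and between 2.16 and 5.14 TPM in the 6 libraries of the lines, while the ZAT6 groups overlap.

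ZAT10, a zinc-finger repressor induced by salt, cold and strong light, had levels of 37.6, 34.8 and 28.9 TPM in the wild-type libraries, 2.16, 3.85 and 2.85 TPM in the G34R libraries and 3.80, 5.14 and 3.28 TPM in the G34W libraries. Every library of the lines lay far under every wild-type library, and the groups of the lines overlapped each other. These levels came from 247 to 305 reads in wild type and from 20 to 42 reads in the lines. The mean was 11.4-fold lower in G34R and 8.29-fold lower in G34W, and the log2 differences were -3.15 ± 0.16 and -2.79 ± 0.16 (n = 3 libraries per group).

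ZAT12, a factor of the high-light and oxidative stress response, had levels of 15.4, 13.0 and 17.7 TPM in the wild-type libraries, 8.61, 6.62 and 5.45 TPM in the G34R libraries and 11.6, 12.4 and 11.8 TPM in the G34W libraries. The 3 groups did not overlap, with G34W in the middle and close to the lowest wild-type library. The differences from wild type were -1.06 ± 0.13 in G34R and -0.33 ± 0.13 in G34W. Between the lines ZAT12 was 0.73 ± 0.13 higher in G34W.

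ZAT6, a factor linked to phosphate balance and root growth, had levels of 9.10, 6.96 and 4.56 TPM in the wild-type libraries, 6.90, 7.35 and 7.97 TPM in the G34R libraries and 8.05, 6.60 and 9.84 TPM in the G34W libraries. All groups overlapped, and the spread within wild type covered the whole range of G34R. Its differences of 0.14 ± 0.18 and 0.25 ± 0.18 were about as large as their errors or little more, and the value in G34R turned to -0.10 without wild type replicate 3 and to -0.03 with quantile normalization.

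ZAT11, which overexpression work ties to root growth and nickel sensitivity, had the lowest mean of the 8 in wild type and over all libraries, though not in G34R, where CAF1b was lower. It had levels of 0.683, 0.878 and 0.325 TPM in the wild-type libraries, 1.95, 0.628 and 2.21 TPM in the G34R libraries and 1.28, 1.36 and 2.28 TPM in the G34W libraries. Only 2 to 5 reads stood behind each wild-type value, and 4 to 14 behind each value of the lines. G34W lay above wild type in every library, while 1 library of G34R lay within the wild-type range. The differences were 0.63 ± 0.25 in G34R and 0.69 ± 0.25 in G34W, and ZAT11 passed the filter of a mean of 1 TPM only through the lines.

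SZF1, the most abundant of the 8 genes, had levels of 115, 111 and 112 TPM in the wild-type libraries, 39.7, 39.2 and 42.8 TPM in the G34R libraries and 43.4, 56.4 and 50.4 TPM in the G34W libraries. No groups overlapped, and the lines were close together relative to their distance from wild type. The mean was 2.78-fold lower in G34R and 2.25-fold lower in G34W, with differences of -1.45 ± 0.07 and -1.16 ± 0.07.

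SZF2, the paralogue with the shared upstream stretch, had levels of 33.9, 33.7 and 36.4 TPM in the wild-type libraries, 20.9, 23.3 and 23.5 TPM in the G34R libraries and 26.2, 28.1 and 26.0 TPM in the G34W libraries. The order of the groups was that of SZF1, again without overlap, but the distances were smaller. The differences were -0.60 ± 0.07 and -0.36 ± 0.07.

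CAF1a, which removes poly(A) tails and takes part in defence, had levels of 53.4, 52.4 and 52.7 TPM in the wild-type libraries, 8.31, 9.25 and 7.88 TPM in the G34R libraries and 12.8, 17.1 and 14.3 TPM in the G34W libraries. The wild-type libraries differed by about 1 TPM, and each group stood clear of the others. The mean was 6.23-fold lower in G34R and 3.59-fold lower in G34W, with differences of -2.51 ± 0.10 and -1.78 ± 0.10. Between the lines it was 0.72 ± 0.10 higher in G34W.

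CAF1b, its stress-induced paralogue, had levels of 5.46, 5.74 and 2.42 TPM in the wild-type libraries, 1.06, 1.45 and 1.01 TPM in the G34R libraries and 2.15, 1.93 and 1.27 TPM in the G34W libraries. Wild type replicate 3 was low, yet still above each library of the lines, and the lines overlapped. Each value rested on 21 to 46 reads in wild type and on 9 to 19 in the lines. Its differences were -1.29 ± 0.23 and -0.94 ± 0.23.

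**Figure D2:**
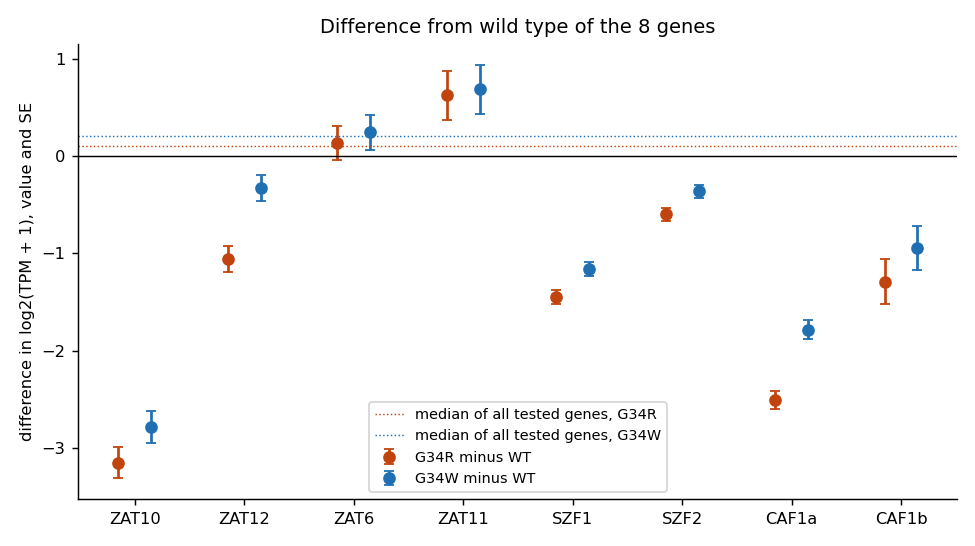
Difference from wild type in log2(TPM + 1) of the 8 genes in G34R and G34W, with bars for the SE, and dotted lines for the median of all tested genes in each line (0.10 and 0.21). ZAT10 lies lowest, at -3.15 and -2.79, and ZAT6 and ZAT11 lie above 0.

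All 8 genes passed the filter. By limma with Benjamini-Hochberg adjustment over all 18544 genes, 6 were lower, 1 was higher and 1 was not called in G34R, where 16.5% of all genes were called lower and 34.6% higher. The same split of 6, 1 and 1 was found in G34W, where 13.1% were called lower and 44.8% higher. Between the lines 4 were higher in G34W, 0 were lower and 4 were not called, against 21.5% of all genes called higher and 11.8% called lower. Since the genes were chosen with these contrasts known and the comparisons share libraries, nothing is read from these counts. The median difference over the 8 genes was -1.18 in G34R, -0.65 in G34W and 0.32 between the lines. With median-ratio scaling 6 genes were lower and 0 higher in each line, while the calls over all genes split into 4665 higher and 4911 lower in G34R in place of 6419 and 3060, into 4500 and 4509 in G34W in place of 8300 and 2427, and into 2492 and 3250 between the lines in place of 3982 and 2192. The alternatives called 7923 to 9983 of all genes in G34R, 8841 to 11056 in G34W and 4900 to 6656 between the lines, of 14313 to 23235 tested. Nothing is read from the counts of the 8 genes under them either, and single genes are named only to show how those counts arose. Over all alternatives 5 to 7 of the 8 genes passed the threshold in each line and 3 to 5 between the lines. The count of 5 in G34R came only from the filter of 5 TPM, under which 6 of the genes were tested. ZAT11 in G34R fell short of it without replicate 1 or 3 of wild type, 1 or 3 of G34R, or 1 or 2 of G34W (0.44 to 0.66), with either other pseudocount, no filter, either rescaling, only the 2 groups compared, the replicate block and voom, and the filter of 5 TPM removes it. ZAT11 in G34W fell short without wild type replicate 3 (0.55) or G34W replicate 3 (0.52), with median-ratio scaling (0.58), with quantile normalization (0.43) and with voom on recovered reads (1.31). ZAT12 in G34W fell short without replicate 1 or 3 of wild type, replicate 2 of G34R or any single G34W library (-0.35 to -0.23), with a pseudocount of 0.1 (-0.35), with no filter, with the replicate block and with voom (-0.37), while median-ratio scaling moved its value to -0.53. ZAT6 passed in G34W without wild type replicate 1 (0.45). Between the lines SZF2 fell short without G34R replicate 1 (0.18) or G34W replicate 2 (0.20), with median-ratio scaling (0.15) and with quantile normalization (0.16), and ZAT10 passed without G34R replicate 2 (0.52). SZF2 in G34W stood at -0.58 with median-ratio scaling.

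The order of the 8 genes by level changed between the groups. In wild type SZF1 stood above CAF1a, followed by SZF2 and ZAT10, whose ranges overlapped, then ZAT12, ZAT6 and CAF1b, the last pair with overlapping ranges, and ZAT11. In G34R SZF2 came after SZF1, and CAF1a, ZAT6 and ZAT12 overlapped, with ZAT10 under them and ZAT11 overlapping both ZAT10 and CAF1b. In G34W CAF1a and ZAT12 followed SZF2 without overlap, then ZAT6 and ZAT10, and again CAF1b and ZAT11 overlapped. ZAT10 thus went from a level near SZF2 to one under ZAT6 in both lines.

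Over the 9 libraries the log2 levels of SZF1 and CAF1a had a Pearson r of 0.99, those of ZAT10 and CAF1a 0.98 and those of SZF1 and SZF2 0.955, while ZAT6 and CAF1a had -0.30 and ZAT11 and ZAT10 -0.74. These values describe 9 libraries that share 3 groups, so the distance of the groups is part of each. By the same measure, the 6 genes outside the 8 that most resembled the mean standardized profile, among 6734 genes with a symbol and a mean of at least 5 TPM, were OPT3, MYB16, ALDH3F1, ERD9, DIT2.1 and CNGC4, with r from 0.97 to 0.99. This profile is that of 6 of the genes, with r of 0.82 to 0.94, while ZAT6 (r = -0.003) and ZAT11 (r = -0.469) did not follow it. OPT3, an iron transporter of the phloem, was at 99.4 to 112.5 TPM in wild type, 55.8 to 58.6 TPM in G34R and 70.4 to 74.4 TPM in G34W. CNGC4, a cyclic nucleotide-gated channel of defence signalling, was at 15.9 to 17.3, 8.28 to 8.71 and 11.3 to 12.1 TPM. Like ZAT12, SZF1, SZF2 and CAF1a, both had G34W between G34R and wild type without overlap. OPT3 and CNGC4 were picked for their likeness to the profile, so this order follows from the choice and is no separate result.

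The other CAF1 homologues did not share the low levels of CAF1a and CAF1b. CAF1 has 11 homologues in the list used here, and 5 of the 9 others passed the filter. Over all tested genes 34.6% were called higher and 16.5% lower in G34R, and 44.8% and 13.1% in G34W. In G34R 1 of the 5 homologues rose and 0 fell, and in G34W 2 rose and 0 fell, with medians of 0.07 and 0.15 beside 0.10 and 0.21 over all genes. With median-ratio scaling these counts turned to 1 higher and 1 lower in G34R and to 0 higher and 2 lower in G34W. AT5G10960, the most abundant, had levels of 155, 154 and 156 TPM in the wild-type libraries, 182, 190 and 195 TPM in the G34R libraries and 151, 152 and 149 TPM in the G34W libraries. It rose in G34R by 0.29 ± 0.04 (adjusted p = 6.31e-06), or by 0.16 with median-ratio scaling, stood at -0.04 ± 0.04 in G34W without a call (called lower with median-ratio scaling, -0.26), and is a near neighbour of HTR8. AT1G15920 rose by 0.34 ± 0.08 in G34W (adjusted p = 0.00129), which median-ratio scaling ended (0.13, adjusted p = 0.176), and in G34R stood at 0.07, a sign that turned with that scaling (-0.06). AT1G06450 rose in G34W by 0.44 ± 0.16 (adjusted p = 0.0233), not called without wild type replicate 1 (0.41), wild type replicate 3 (0.34) or G34W replicate 3 (0.41), nor with median-ratio scaling (0.25), quantile normalization (0.19) or no filter. In G34R it stood at -0.36 ± 0.16 and passed only without wild type replicate 3 (-0.46), without G34R replicate 2 (-0.52), with either rescaling or with the replicate block (-0.36, adjusted p = 0.0421). The count of 1 in G34R became 2 when replicate 1 or 3 of wild type, or 2 or 3 of G34R, was left out, and that of 2 in G34W became 1 without wild type replicate 1 or 3 or G34W replicate 3. AT3G44240 was listed at 0 in all 9 libraries.

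**Figure D3:**
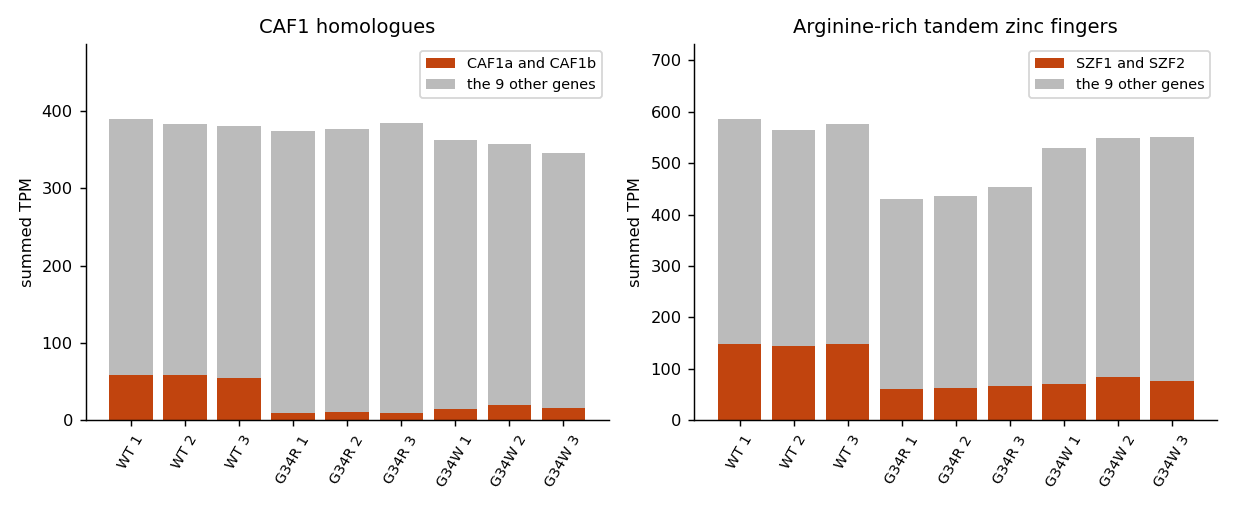
Summed TPM of the 11 CAF1 homologues (left) and of the 11 arginine-rich tandem zinc-finger genes (right) in each library, from 0, with the stress-induced pair of each family in red and the 9 other genes in grey. CAF1a and CAF1b make up 14.5% to 15.2% of the CAF1 sum in wild type and 2.31% to 5.35% in the lines.

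Summed over the family, the CAF1 genes reached 381 to 389 TPM in wild type, 374.5 to 384 TPM in G34R and 345 to 362 TPM in G34W. CAF1a and CAF1b gave 14.5% to 15.2% of this sum in wild type, and the share was 2.31% to 2.85% for G34R and 4.12% to 5.35% for G34W. The summed level of the 9 others was 325 to 330 TPM in wild type, with 365 to 375 TPM in G34R and 330 to 347 TPM in G34W, so wild type and G34W overlapped and G34R lay above both. SZF1 and SZF2 gave 25.4% to 25.7% of the TPM of their family of 11 in wild type, and the share was 14.1% to 14.6% for G34R and 13.2% to 15.4% for G34W. Here the sums of the 9 others were 420 to 437, 369 to 388 and 459 to 474 TPM. These shares also depend on intron length, since the TPM of nearly all genes are per gene span, introns included. No sum was recomputed with median-ratio scaling, so the order of the groups in the sums may depend on it. That scaling moved AT5G10960, the most abundant of the other CAF1 genes, from 0.29 to 0.16 in G34R. It moved TZF1, the most abundant of the other zinc-finger genes, from 0.18 to -0.04 in G34W.

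The other arginine-rich tandem zinc-finger genes split in both lines. The shares of all tested genes called higher and lower were 34.6% and 16.5% in G34R, and 44.8% and 13.1% in G34W. Of the 8 other zinc-finger genes that passed the filter, 1 rose, 4 fell and 3 were not called in G34R, and 4 rose and 4 fell in G34W, with medians of -0.18 and 0.00. With median-ratio scaling 1 rose and 5 fell in G34R and 2 rose and 4 fell in G34W. TZF4, known as SOMNUS and a regulator of seed germination by light, fell in both lines, by 0.87 ± 0.21 in G34R (adjusted p = 0.00282) and by 1.27 ± 0.21 in G34W (adjusted p = 9.43e-05). TZF9 rose in both, by 0.75 ± 0.10 (adjusted p = 1.05e-05) and 0.59 ± 0.10 (adjusted p = 0.000103), the latter 0.39 with median-ratio scaling. TZF5 rose in G34W, from 25.0 to 27.4 TPM in wild type to 49.2 to 52.1 TPM (0.91 ± 0.08, adjusted p = 4.73e-08), and stood at 0.00 in G34R. TZF1, the most abundant with 207 to 220 TPM in wild type, fell in G34R by 0.29 ± 0.04 (adjusted p = 3.15e-06) and was 0.18 ± 0.04 higher in G34W (adjusted p = 0.000365), a sign that median-ratio scaling turned (-0.04).

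Other C2H2 genes of the ZAT class also went both ways. Of the 9 of 11 that passed the filter, 2 rose, 3 fell and 4 were not called in G34R, and 2 rose, 2 fell and 5 were not called in G34W, with medians of -0.21 and 0.03. Beside them, 34.6% of all tested genes were called higher and 16.5% lower in G34R, and 44.8% and 13.1% in G34W. AT2G28200 fell in both lines, by 0.39 ± 0.09 (adjusted p = 0.00132) and by 0.60 ± 0.09 (adjusted p = 1.82e-05). AT5G03510 rose in both, by 0.79 ± 0.15 (adjusted p = 0.000408) and 0.60 ± 0.15 (adjusted p = 0.00337), the latter not called after quantile normalization (0.35, adjusted p = 0.0871). AT2G28710 rose in G34R by 0.73 ± 0.19 (adjusted p = 0.00368) and stood at 0.45 ± 0.19 in G34W (adjusted p = 0.0506), where it passed without replicate 2 of wild type (0.61), of G34R (0.45) or of G34W (0.53). ZAT7 had levels of 1.92, 2.30 and 2.28 TPM in the wild-type libraries, 0, 1.62 and 1.04 TPM in the G34R libraries and 5.09, 5.56 and 6.25 TPM in the G34W libraries. The G34R libraries lay under and the G34W libraries above every wild-type library. ZAT7 fell by 0.86 ± 0.26 in G34R (adjusted p = 0.0101) and rose by 1.06 ± 0.26 in G34W (adjusted p = 0.00202), not called there with a pseudocount of 0.1 (adjusted p = 0.111). It was the gene of this list with the largest gap between the lines, 1.92 ± 0.26 (adjusted p = 2.47e-05), but reads may be shared with its neighbour AT3G46080, a close copy.

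Other genes of mRNA decay differed from wild type by at most 0.40 in either direction. The 16 genes, all above the filter, cover the CCR4-NOT complex, decapping, 5′ to 3′ decay and the poly(A) ribonuclease PARN. Over all tested genes 34.6% were called higher and 16.5% lower in G34R, and 44.8% and 13.1% in G34W, with medians of 0.10 and 0.21. Of the 16 decay genes, 1 rose, 0 fell and 15 were not called in G34R. In G34W 6 rose, 0 fell and 10 were not called, and the medians of these genes were -0.01 in G34R and 0.20 in G34W. These counts depended on the scaling, since with median-ratio scaling 0 rose and 6 fell in G34R and 1 rose and 2 fell in G34W. DCP1, a decapping subunit, rose by 0.29 ± 0.08 in G34R (adjusted p = 0.00427, and 0.0666 with median-ratio scaling) and by 0.40 ± 0.08 in G34W (adjusted p = 0.000289), the latter 0.19 with that scaling. DCP5, another decapping protein, rose by 0.18 ± 0.05 in G34W (adjusted p = 0.00272, turned to -0.04 by median-ratio scaling) and in G34R stood at -0.04, or at 0.00 without G34R replicate 1, and was called lower with either rescaling (-0.17 and -0.11). The Rcd1-like gene AT3G20800 rose by 0.34 ± 0.11 in G34W (adjusted p = 0.0171), lost without wild type replicate 3 (0.29) or G34W replicate 1 (0.26), with median-ratio scaling (0.13) and with quantile normalization (0.12). In G34R it stood at 0.25 and passed without G34R replicate 1 (0.37). The poly(A) ribonuclease gene PARN rose by 0.33 ± 0.12 in G34W (adjusted p = 0.0293), lost without wild type replicate 1 (0.24) or 2 (0.29) or any single G34W library (0.31 to 0.34), with median-ratio scaling (0.13) and with quantile normalization (0.074). In G34R PARN stood at 0.06, with a sign that turned without wild type replicate 1 (-0.03) and with median-ratio scaling (-0.06). The count of 1 in G34R was 2 without G34R replicate 1 or 3, and that of 6 in G34W was 3 without wild type replicate 2 or 3 or any single G34W library.

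Kinases, CAMTA factors and the oxidase gene RBOHD, listed as acting ahead of the rapid response, differed among themselves. The list is called kinases for short below. Among all tested genes 34.6% were called higher and 16.5% lower in G34R, and 44.8% and 13.1% in G34W. In G34R 1 of the 10 genes of this list rose, 3 fell and 6 were not called. In G34W 2 rose, 3 fell and 5 were not called, and the medians were -0.14 in G34R and 0.06 in G34W. With median-ratio scaling 1 rose and 6 fell in G34R, and 0 rose and 5 fell in G34W. MPK3, a stress-activated MAP kinase, had levels of 107, 109.5 and 114 TPM in the wild-type libraries, 67.0, 68.6 and 73.9 TPM in the G34R libraries and 54.0, 52.1 and 56.7 TPM in the G34W libraries. It had its lowest level in G34W, unlike ZAT12 and CAF1a, with falls of 0.65 ± 0.05 in G34R (adjusted p = 2.3e-08) and of 1.01 ± 0.05 in G34W (adjusted p = 9.92e-11), and between the lines it was 0.36 ± 0.05 lower in G34W (adjusted p = 5.72e-05). MKK5, a kinase that activates MPK3, fell by 0.27 ± 0.09 (adjusted p = 0.0151) and by 0.40 ± 0.09 (adjusted p = 0.000921), the latter -0.61 with that scaling. CAMTA3, a calmodulin-binding factor, rose by 0.39 ± 0.09 in G34R (adjusted p = 0.00104) and by 0.37 ± 0.09 in G34W (adjusted p = 0.00149), the latter not called with median-ratio scaling (0.16, adjusted p = 0.0989). MPK4 fell by 0.24 ± 0.07 in G34R (adjusted p = 0.0111, and 0.0516 without wild type replicate 1) and stood at 0.15 in G34W, a sign that median-ratio scaling turned (-0.06). Without G34W replicate 2 the count of called genes in G34W went from 5 to 3.

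Genes that remove reactive oxygen, with which ZAT10 and ZAT12 are linked, went in both directions in G34R. All tested genes were called higher and lower in shares of 34.6% and 16.5% in G34R, and of 44.8% and 13.1% in G34W. Of the 7 scavenging genes that passed the filter, 3 rose and 2 fell in G34R and 4 rose and 1 fell in G34W, with medians of 0.05 and 0.36. With median-ratio scaling 3 rose and 4 fell in G34R and 4 rose and 3 fell in G34W. APX1, cytosolic ascorbate peroxidase, had levels of 235, 228 and 214 TPM in the wild-type libraries, 453, 445 and 411 TPM in the G34R libraries and 447, 445 and 456 TPM in the G34W libraries. The ranges of the lines overlapped, and APX1 rose by 0.95 ± 0.04 (adjusted p = 1.02e-11) and 0.99 ± 0.04 (adjusted p = 7.12e-12). FSD1, an iron superoxide dismutase (0.18 and 0.19 with median-ratio scaling), and CAT1, a catalase, rose in both lines, by 0.31 ± 0.03 and 0.41 ± 0.03 and by 0.61 ± 0.11 and 0.82 ± 0.11. CSD2, the copper and zinc superoxide dismutase of chloroplasts, fell by 0.81 ± 0.04 in G34R (adjusted p = 1.66e-10) and by 0.12 ± 0.04 in G34W (adjusted p = 0.0274), a value that median-ratio scaling moved to -0.34 and a call that was lost without wild type replicate 2 (-0.12) or 3 (-0.11) or G34W replicate 1 (-0.10) or 2 (-0.11). APX2 was under the filter, with at most 0.0701 TPM.

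**Figure D4:**
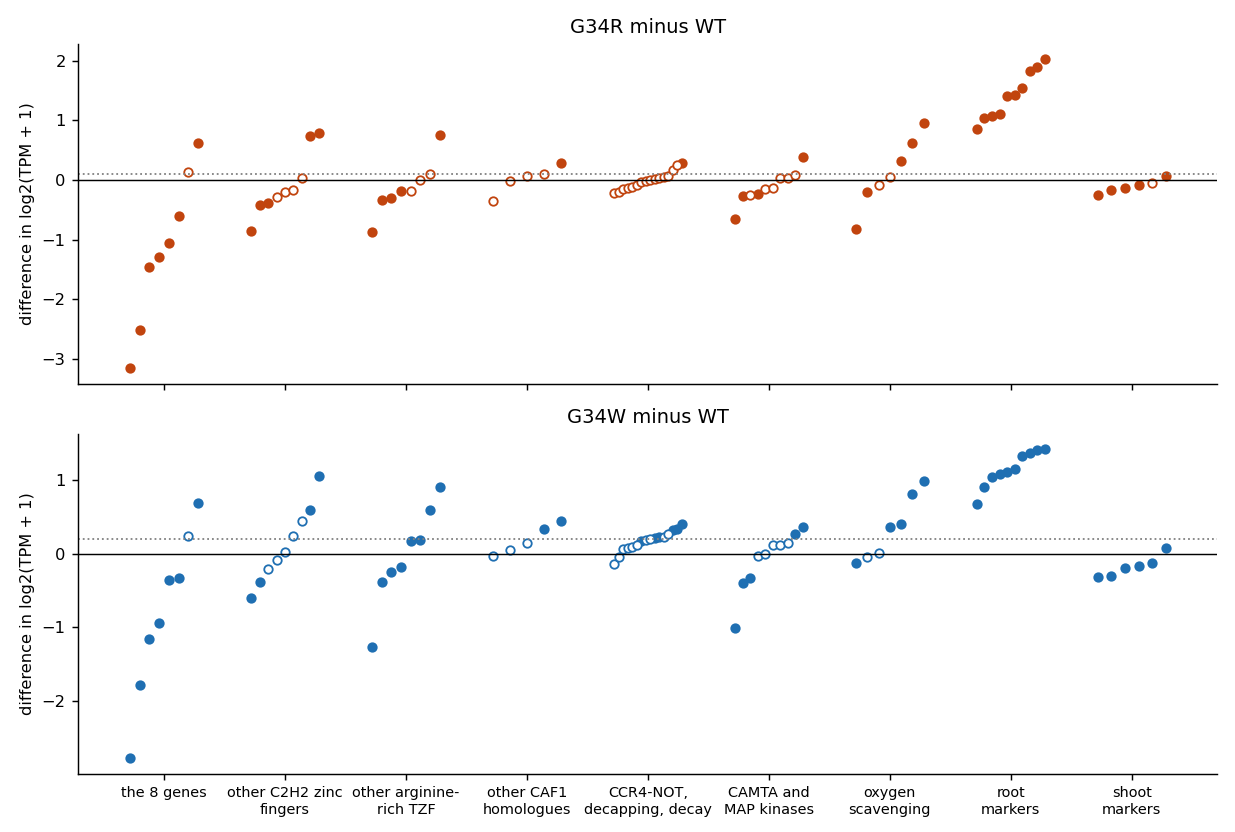
Difference from wild type in log2(TPM + 1) of each tested gene of the 8 and of the other lists, in G34R (top) and G34W (bottom), ordered by value within a list. Filled points had an adjusted p under 0.05, open points did not, and the dotted line is the median of all tested genes. The root markers lie between 0.85 and 2.02 in G34R and between 0.68 and 1.42 in G34W, and the CCR4-NOT and decay genes lie between -0.22 and 0.29 in G34R and between -0.13 and 0.40 in G34W.

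Among all tested genes 34.6% were called higher and 16.5% lower in G34R, and 44.8% and 13.1% in G34W. Of the organ markers, 10 of 10 root genes rose in both lines, with medians of 1.42 and 1.13. One of them, PRP1, with a mean of 0.767 TPM in wild type, passed the filter only through the lines. CASP1 of the endodermis rose by 1.41 and 1.15, CASP5 by 2.02 and 1.42, and the root hair genes PRP3 and EXP7 by 1.83 and 1.34 and by 1.43 and 1.41. Of the 6 shoot genes 1 rose, 4 fell and 1 was not called in G34R, and 1 rose and 5 fell in G34W, with medians of -0.11 and -0.18. With median-ratio scaling 0 rose and 5 fell in G34R and 0 rose and 6 fell in G34W. RCA had differences of -0.25 and -0.32, LHCA1 of -0.09 and -0.31, GAPB of -0.13 and -0.19 and LHCB1.3 of -0.17 and -0.17. With quantile normalization RCA, GAPB and LHCB1.3 were at 0.02, 0.04 and 0 in G34R, and 1 shoot gene rose and 0 fell there. In G34W 2 shoot genes rose and 1 fell with quantile normalization, the latter RCA (-0.10). That method gives genes of equal rank the same value. For genes as abundant as these it shows changes of rank and can hardly show whether their levels fell.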

How the data were processed

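Messenger RNA of 9 libraries, 3 per group by their titles, was deposited by the authors as TPM in 1 table. Its headers end in geneCounts, but each column sums to 1000000. The submitters' processing notes list HISAT2 2.1.10 with fastp 0.20.1, the TAIR10 build and DESeq2 1.26.0. The counting tool and its strand setting were not given in the sources used here. Values of overlapping genes and close copies are therefore uncertain. Whole reads were recovered from the TPM within a relative tolerance of 1e-06 for 23235 genes above 0, taking the gene span of the TAIR10.1 table, introns included, for 99.4% of them and another length for 147. The table gives no positions, so positions and sequences are those of RefSeq's own TAIR10.1 annotation and genome.

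Genes averaging 1 TPM or more over the libraries (18544) entered limma 3.58.1 (R 4.3.3), with log2(TPM + 1) as the value, 1 model for the 3 groups, trended moderated variances and two-sided p-values under Benjamini-Hochberg adjustment at 0.05. The fit was tested on simulated data. The 8 genes and all lists were chosen with earlier results of these data known. From each list, up to 4 called genes were named, taking the smallest adjusted p over both lines against wild type, and for the profile the 6 genes of highest Pearson r. No label tells whether replicates were planted separately, so a p-value covers the spread among these libraries alone, which may be technical. Alternatives were other pseudocounts, filters and scalings, only the groups compared, a replicate block, voom on the recovered reads and leaving out each library.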

Additional observations from a re-analysis of the deposited data

How the results depend on the processing

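The median difference of the 8 genes from wild type, -1.18 in G34R and -0.65 in G34W, was -1.31 and -0.77 with a pseudocount of 0.1, -0.69 and -0.40 with 5, -1.29 and -0.84 with median-ratio scaling, -1.36 and -0.87 with quantile normalization, and -1.30 and -0.79 with voom on recovered reads. It was -0.76 in G34W with a filter of 5 TPM, and 0.20 between the lines with a pseudocount of 5. Without single libraries it ran from -1.23 to -1.08 in G34R and from -0.75 to -0.57 in G34W. Counts of called genes moved in G34R to 3 (other C2H2 genes, filter of 5 TPM), 2, 6 and 7 (CAF1 homologues, decay genes and kinases, median-ratio scaling and quantile normalization alike), 1 (shoot, quantile normalization) and 3 (decay, voom). In G34W they moved to 1 for CAF1 homologues (no filter, and quantile normalization), 3 for decay genes (both scalings) and 3 for shoot genes (quantile normalization). Without single libraries, CAF1 homologues ranged from 1 to 2 and decay genes from 1 to 2 in G34R; in G34W the ranges were 1 to 2, 3 to 8 and, for kinases, 3 to 5.

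Several small differences changed sign, and that of LHCB1.3 in G34R came out at 0. In G34R, ZAT6 was -0.03 with quantile normalization and ran from -0.10 to 0.34 without single libraries, TZF5 was 0.0002 with a pseudocount of 5 and 0.017 with voom and ran from -0.075 to 0.090, PARN was -0.058 and -0.13 with median-ratio scaling and quantile normalization and ran from -0.034 to 0.17, DCP5 ran from -0.060 to 0.0047, and AT1G15920 was -0.056 with median-ratio scaling and -0.061 with quantile normalization. With quantile normalization RCA was 0.016, GAPB 0.045 and LHCB1.3 0 in G34R, and GAPB was 0.0097 and MPK4 -0.036 in G34W. This method ties values to rank, which fixes the values of genes as abundant as RCA, GAPB and LHCB1.3 almost wholly. With median-ratio scaling TZF1 was -0.0385, DCP5 -0.0392 and MPK4 -0.062 in G34W. Between the lines ZAT6 ran from -0.018 to 0.24 and ZAT11 from -0.24 to 0.25. Other causes were not tested.

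Same-numbered replicates did not deviate together (r from -0.023 to 0.041 over 9 pairs, and from -0.059 to 0.029 over 18 pairs of different number), so the numbers were not taken as pairs. The replicate block gave 9569, 10747 and 6238 called genes in place of 9479, 10727 and 6174, and 3 called CAF1 homologues in G34R in place of 1. With this block 6, 6 and 4 of the 8 genes were called, against 7, 7 and 4, since ZAT11 in G34R and ZAT12 in G34W fell short of the threshold. Depth limits ZAT11 and CAF1b most, since some of their libraries held under 15 reads.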
